A study of Homo sapiens with 30 samples.

Results

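The mRNA response of HEK293 cells to Arg-tRNA_His(GUG), a missense-correcting tRNA (mc-tRNA), was measured in 3 libraries and set against 3 libraries of cells that received the same reporter without it, 6 of the 30 libraries of the series. HEK293 is an established human embryonic kidney line, and the labels give its genotype as wild type. All 6 libraries came from cells transfected, by lipid reagent, with a plasmid for the mistranslation reporter EGFP(R96H), a green fluorescent protein in which, by its name, an arginine is replaced by histidine, fused to mCherry. In the mc-tRNA group the cells also expressed Arg-tRNA_His(GUG), and in the other group the reporter was expressed alone. Per the labels' protocols, cells were sorted for mCherry 48 h after transfection, so the libraries describe transfected cells after transient expression, and polyA RNA from 1 µg of total RNA was sequenced from strand-specific libraries. The series design names the effect of mc-tRNAs on mRNA levels among its questions. Libraries were chosen by their titles and spike-in rows were left out. The labels call the 3 libraries of a group independent replicates.

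A tRNA-His with the anticodon GUG reads the histidine codons CAC and CAU, and is normally charged with histidine by histidyl-tRNA synthetase. By its name, the mc-tRNA keeps that anticodon but carries arginine, so that it can place arginine at a histidine codon of the reporter, and in principle at histidine codons of cellular mRNAs too. Proteins that carry substituted residues can misfold, and cells are known to answer misfolding with cytosolic heat shock chaperones under HSF1, misfolding in the endoplasmic reticulum with the unfolded protein response, and uncharged tRNAs or other stresses with ATF4, the transcription factor of the integrated stress response. Some of the lists below were drawn up around these pathways, and all were chosen with earlier results of these data known.

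Gene totals were 44535126, 47909473 and 51439674 counts in the mc-tRNA libraries, against 53283337, 50963577 and 55446962 counts with the reporter alone. Levels are in CPM, the counts per 1e6 of a library total that was scaled by its TMM factor, given per library in the order of the replicate numbers, and changes are log2 fold changes ± SE of the mc-tRNA group over the reporter alone. The adjusted p-values are from edgeR's quasi-likelihood test with Benjamini-Hochberg adjustment over 22321 genes, and genes below an adjusted p of 0.05 are called, as rises or as falls. Where a gene had 0 counts, the upper limit was taken as 3 counts per library (0.0541 to 0.0674 CPM here), for counting error only. Mitochondrially encoded RNA made up 5.76%, 5.61% and 5.44% of the counts with the mc-tRNA, against 4.83%, 4.90% and 4.99% with the reporter alone. The 10 markers of HEK293 summed to 886 to 917 CPM with the mc-tRNA and to 871 to 913 CPM with the reporter alone, and 9 of them averaged at least 1 CPM in both groups; PAX8 was near 0, with 2 counts with the mc-tRNA and 3 with the reporter alone. The 18 markers of other cell types summed to 20.1 to 21.5 CPM with the mc-tRNA and to 20.3 to 23.7 CPM with the reporter alone. Among those, COL1A1 made up most of the sum, and CD3E, HBB and KRT14 had 0 counts in both groups. In bulk RNA, fewer cells of a state and less RNA per cell cannot be told apart.

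With the mc-tRNA, 560 of 22321 genes changed (2.51%): 348 rose (1.56%) and 212 fell (0.950%). The changes were small, with a median log2 change of 0.46 among the genes that rose and -0.38 among those that fell, and 80 rises and 20 falls were at least 2-fold. The steepest rise among genes of at least 1 CPM was FMC1. Of 19 cytosolic HSP70, HSP40 and HSP110 chaperones 9 rose, and of 36 targets of ATF4 18 fell. The number of calls turned on single libraries. It was 53 without mc-tRNA replicate 1 and 180 without mc-tRNA replicate 2, against 636 without mc-tRNA replicate 3. It was 486, 198 and 73 without reporter-alone replicates 1, 2 and 3. Of the 560 genes, 47 kept the call in all 6 of these fits, 37 that rose and 10 that fell. At an unadjusted p under 0.05 there were 3629 genes. A fit without the 6 libraries of the EGFP(R65) reporter, alone or with Ser-tRNA_Arg(CCG), called 369 genes. A fit of the 6 EGFP(R96H) libraries alone called 1911, and DESeq2 called 927. With library totals in place of TMM factors, 288 of 595 called genes were higher (48.4%), where the TMM fit gave 62.1%.

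**Figure D1:**
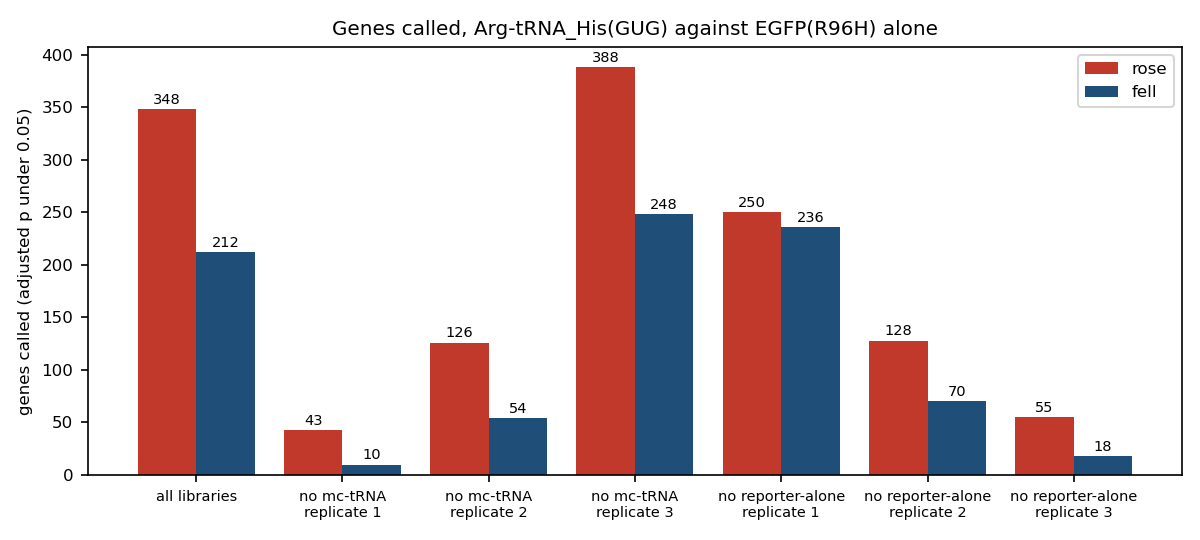
Genes called with Arg-tRNA_His(GUG) against EGFP(R96H) alone (y axis, number of genes with an edgeR adjusted p under 0.05), with all libraries and without each of the 6 libraries in turn (x axis); red bars are genes that rose and blue bars genes that fell. The fit without mc-tRNA replicate 1 called 43 rises and 10 falls, where all libraries gave 348 and 212.

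The cells with EGFP(R96H) alone also differed from those with the other reporters alone. Against the mean of the EGFP(R96Q), EGFP(R96C) and EGFP(R96W) reporters alone, 9 libraries of the same design, EGFP(R96H) alone differed in 7979 of the 22321 genes (35.7%). The mc-tRNA mean lay within the range of those 9 libraries for 269 of the 348 genes that rose and for 170 of the 212 that fell. The mean of EGFP(R96H) alone lay within that range for 93 and 81 of these genes. Over all tested genes the shares were 84.3% and 72.8%. EGFP(R96H) alone was below all 9 libraries for 206 of the risen genes and above all 9 for 82 of the fallen ones, where the shares of all genes were 6.43% and 7.96%. Since EGFP(R96H) alone enters both comparisons, a gene low in it is more likely to be called a rise, and these counts describe levels only. What sets EGFP(R96H) alone apart from the other reporters was not tested, and the same count was not made for each of the other reporters. Levels in the 9 libraries are given beside the genes below as the range from the lowest to the highest library.

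A smaller number of genes lay outside all 12 libraries of the 4 EGFP(R96) reporters alone. All 3 mc-tRNA libraries were above all 12 for 20 of the 348 risen genes (5.75%, with 0.806% over all tested genes) and below all 12 for 22 of the 212 fallen genes (10.4%, with 0.712% over all). Since the 12 include the 3 libraries of EGFP(R96H) alone that enter the calls, called genes are more likely to lie outside them. Over all tested genes, the mc-tRNA libraries were above those 3 for only 14.1% and below them for 13.0%. The shares of called and of all genes are therefore not like for like, and describe levels only. The 20 that rose, picked out here after their values were seen, included FMC1, CLEC2L, the chaperonin subunit TCP1, the HSP90 co-chaperone PTGES3, the cholesterol enzymes IDI1, HMGCS1 and SQLE, the cell cycle gene CCND1, the transcription factor MAFF, the 3′ end processing factor CSTF3, TRMT10C, GNL3 and MT-CO1. Among the 22 that fell were the endocytic receptor LRP1, the Mediator subunit MED12, the cullin CUL9, PLEKHG4, the lipid flippase ATP9A, DDIT4, INHBE and FGF21.

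**Figure D2:**
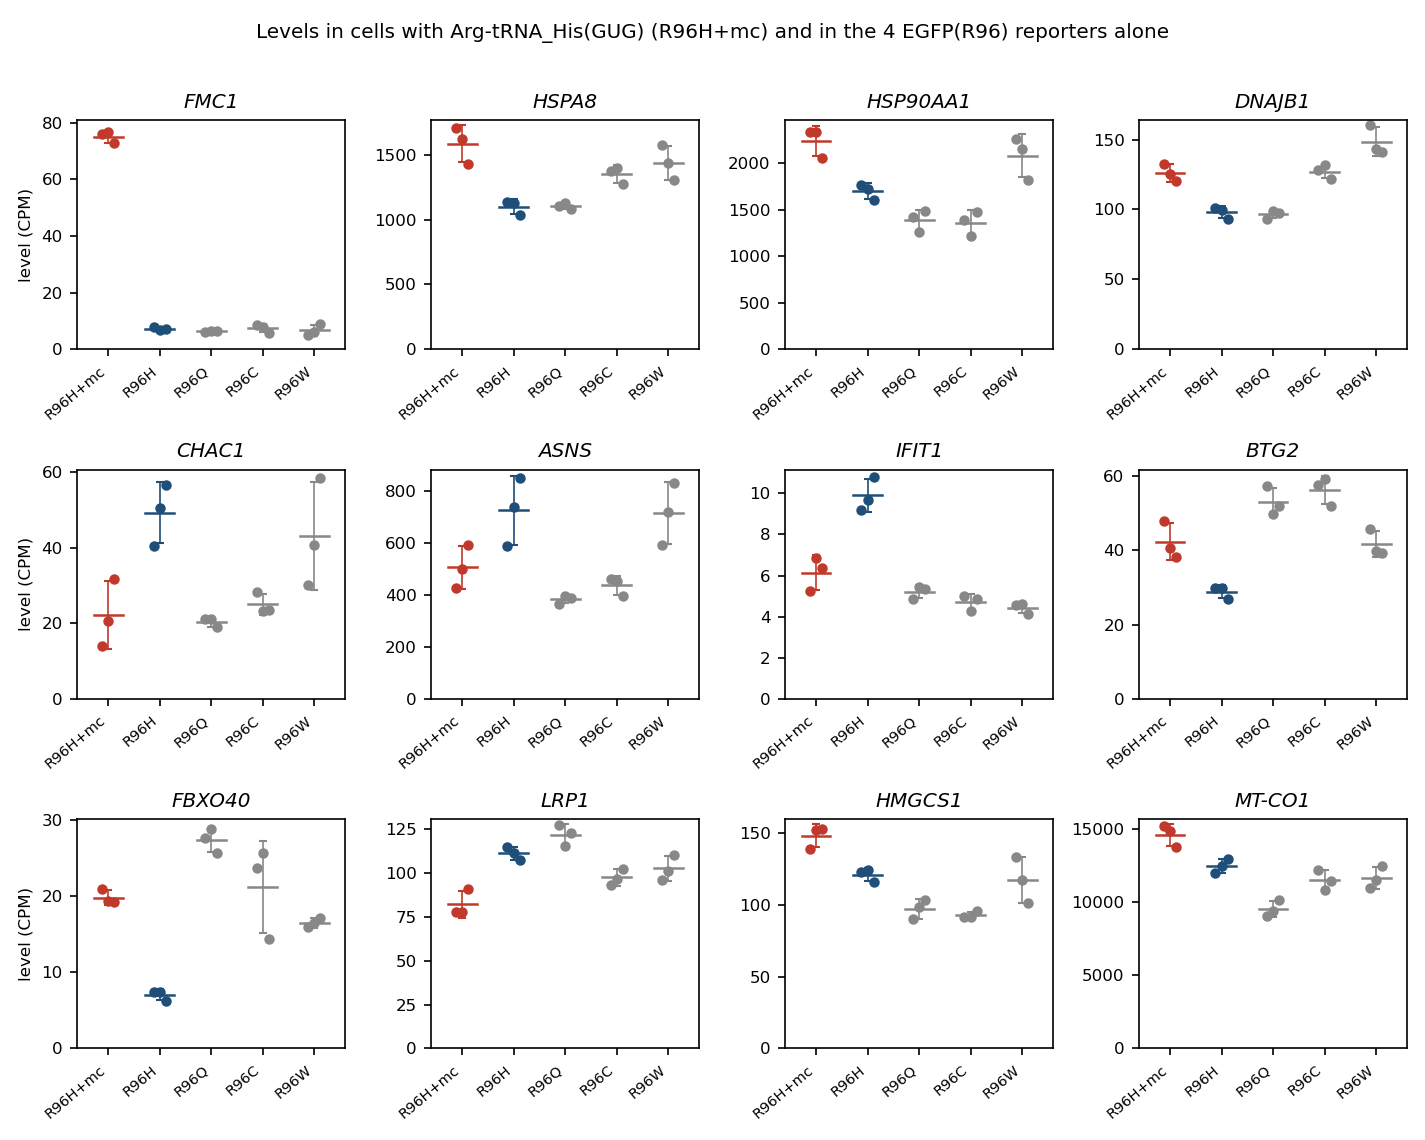
Levels of 12 genes (y axis, CPM from 0, 1 scale per gene) in the 3 libraries with EGFP(R96H) and Arg-tRNA_His(GUG) (red), the 3 with EGFP(R96H) alone (blue) and the 3 each with EGFP(R96Q), EGFP(R96C) or EGFP(R96W) alone (grey); points are libraries, lines are means and bars are SD (n = 3). The mc-tRNA libraries stand above all 4 reporters alone for FMC1, HMGCS1 and MT-CO1 and below them for LRP1. For FBXO40, IFIT1 and BTG2, EGFP(R96H) alone stands apart from the grey points. For IFIT1 the mc-tRNA mean of 6.14 CPM is also above the grey points, which reach 5.46 CPM.

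FMC1, an assembly factor of the mitochondrial ATP synthase (chr7:139339457-139346319, GRCh38, GENCODE 29), had 75.9, 76.7 and 72.7 CPM with the mc-tRNA, against 8.0, 6.76 and 7.07 CPM with the reporter alone. The groups did not overlap, and the other reporters alone had 5.18 to 8.80 CPM. Its log2 change of 3.37 ± 0.12 (adjusted p = 3.88e-18) held its call without each of the 6 libraries in turn. LUC7L2, a splicing factor gene, overlaps FMC1 on the same strand, and reads may have been assigned to either of the pair. LUC7L2 itself averaged 107.0 ± 2.94 CPM with the mc-tRNA and 113.9 ± 1.76 CPM with the reporter alone, a log2 change of -0.09 ± 0.05 (adjusted p = 0.423). Of 10 tested genes that start within 200000 bases of FMC1, the only other one called was CLEC2L, a C-type lectin gene named here after its values were seen. CLEC2L had 22, 32 and 18 counts with the mc-tRNA and 0, 0 and 2 counts with the reporter alone, a ratio of 39.96 per count sequenced with an exact 95% interval of 10.7 to 336. The log2 change of FMC1 was 4.91 with Arg-tRNA_Gln(CUG), 0.66 with Arg-tRNA_Trp(CCA) and 1.19 with Arg-tRNA_Cys(GCA). The histidine and glutamine effects on FMC1 differed by -1.54 ± 0.17 (adjusted p = 3.71e-06). The sequences of the plasmids are not used here, and what FMC1 shares with them was not tested. 

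The other large rises were of genes at low levels. FBXO40, an F-box protein first described in muscle (chr3:121593119-121630295), had 20.9, 19.3 and 19.2 CPM with the mc-tRNA, against 7.46, 7.45 and 6.22 CPM with the reporter alone. Its groups did not overlap and its log2 change was 1.49 ± 0.18 (adjusted p = 5.22e-05), but the other reporters alone had 14.3 to 28.8 CPM. MGAM, an intestinal maltase-glucoamylase, had 4.65, 4.02 and 2.95 CPM with the mc-tRNA, against 1.12, 0.612 and 0.795 CPM with the reporter alone, a log2 change of 2.19 ± 0.26 (adjusted p = 3.85e-05) with 1.79 to 3.40 CPM in the other reporters alone. Its close homologue MGAM2, with which it may share reads, had a log2 change of 1.83 ± 0.35 (adjusted p = 0.00563). NPR3, the clearance receptor of natriuretic peptides, rose by 1.54 ± 0.19 (adjusted p = 1.56e-05), with 0.937 to 2.48 CPM in the other reporters alone. The neutral sphingomyelinase SMPD3 rose by 1.43 ± 0.22 (adjusted p = 0.000288) and the adaptor protein CASS4 by 1.45 ± 0.33 (adjusted p = 0.0181). The antisense genes COLCA1, PRICKLE2-AS1 and FAM169A-AS1 and the interferon pseudogene IFNA22P rose by 1.79 ± 0.29, 1.45 ± 0.27, 1.43 ± 0.26 and 1.55 ± 0.29. The strand setting of the counting is not given in the sources used here, so reads of an antisense gene and its partner cannot be told apart. Among the rises with the smallest p-values, MXD1, which competes with MYC for its partner MAX, had 35.6, 33.9 and 31.6 CPM with the mc-tRNA, against 23.9, 25.1 and 21.9 CPM with the reporter alone, a log2 change of 0.51 ± 0.07 (adjusted p = 4.24e-05). The groups of MXD1 did not overlap, and the other reporters alone had 32.2 to 36.5 CPM. In the same way LSMEM1, OVGP1, the centrosomal CCDC13, the homeobox gene HOXC13 and the vesicle GTPase RAB3A rose by 1.05 ± 0.12, 0.49 ± 0.07, 0.92 ± 0.13, 0.45 ± 0.07 and 0.62 ± 0.10. Single libraries decided some calls, lost without mc-tRNA replicate 1 by MGAM2 and CASS4 (adjusted p = 0.0704 to 0.139) and without replicate 2 by CASS4 (adjusted p = 0.0666). Calls also failed without reporter-alone replicate 2 by CASS4 (adjusted p = 0.0648) and without replicate 3 by IFNA22P and CASS4 (adjusted p = 0.0554 to 0.147). COLCA1, FBXO40, CASS4, PRICKLE2-AS1, FAM169A-AS1, LSMEM1, MXD1, OVGP1, CCDC13, HOXC13 and RAB3A had a log2 change of the opposite sign against the other 3 EGFP(R96) reporters alone (-0.67 to -0.00). IFNA22P and SMPD3 kept their sign but not their calls against the other 3 EGFP(R96) reporters alone (adjusted p = 0.811 to 0.978).

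Genes at moderate levels were among the falls with the smallest p-values. LRP1, a large endocytic receptor (chr12:57128493-57213351), had 77.9, 77.4 and 90.8 CPM with the mc-tRNA, against 115, 111 and 108 CPM with the reporter alone. The groups did not overlap, the other reporters alone had 93.0 to 127 CPM, and the log2 change was -0.44 ± 0.07 (adjusted p = 0.000791). MED12, a subunit of the Mediator kinase module, had 77.3, 75.3 and 82.6 CPM with the mc-tRNA, against 102, 97.6 and 92.0 CPM with the reporter alone, a log2 change of -0.31 ± 0.05 (adjusted p = 0.00169). CUL9, a cullin that binds p53, and PLEKHG4 had log2 changes of -0.36 ± 0.07 (adjusted p = 0.00282) and -0.48 ± 0.09 (adjusted p = 0.00268). LRP1, MED12, CUL9 and PLEKHG4 were below all 12 libraries of the reporters alone. ARPIN, an inhibitor of the Arp2/3 complex, the lipid transfer protein BLTP3A and the Axin-binding protein ZBED3 had log2 changes of -0.42 ± 0.07, -0.40 ± 0.07 and -0.53 ± 0.10. The steepest fall among genes of at least 1 CPM was of the antisense gene F11-AS1, with 0.354, 0.394 and 0.400 CPM with the mc-tRNA, against 1.59, 1.03 and 0.777 CPM with the reporter alone, where the other reporters alone had 3.38 to 7.06 CPM. F11-AS1 thus had a log2 change of -1.55 ± 0.29 (adjusted p = 0.00301), with no overlap of the groups. The atypical kinase ALPK2, the sulfotransferase SULT1C2 and the zinc finger gene ZMAT1 had log2 changes of -1.33 ± 0.30, -1.04 ± 0.24 and -1.03 ± 0.24. The antisense genes HEXIM2-AS1, SGMS1-AS1 and BDNF-AS had log2 changes of -0.95 ± 0.20, -0.87 ± 0.19 and -0.76 ± 0.18. CALHM1, a calcium channel gene named after its values were seen, had 5 counts over the mc-tRNA libraries and 68 over the reporter-alone libraries, a ratio of 0.0816 with an exact 95% interval of 0.0257 to 0.200. The call was lost without mc-tRNA replicate 1 by BLTP3A, ZBED3, ALPK2, SULT1C2, ZMAT1, HEXIM2-AS1, SGMS1-AS1 and BDNF-AS (adjusted p = 0.0523 to 0.157) and without replicate 2 by ALPK2, SULT1C2, ZMAT1, HEXIM2-AS1 and BDNF-AS (adjusted p = 0.0666 to 0.106). It was lost without reporter-alone replicate 2 by ALPK2, ZMAT1 and BDNF-AS (adjusted p = 0.0604 to 0.114) and without replicate 3 by ZBED3, ALPK2, SULT1C2, ZMAT1, HEXIM2-AS1, SGMS1-AS1 and BDNF-AS (adjusted p = 0.0518 to 0.171). ZMAT1, HEXIM2-AS1, SGMS1-AS1, BDNF-AS and ZBED3 had a log2 change of the opposite sign against the other 3 EGFP(R96) reporters alone (0.05 to 0.52). ARPIN, ALPK2 and SULT1C2 kept their sign but not their calls against the other 3 EGFP(R96) reporters alone (adjusted p = 0.0691 to 0.811).

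Several cytosolic chaperones rose, by small amounts. Of the HSP70, HSP40 and HSP110 families, 9 of 19 tested members rose, 0 fell and 10 did not pass the test, with a median log2 change of 0.25, where the median over all genes was -0.00 and 1.56% of genes rose. The 3 mc-tRNA libraries were above the 3 reporter-alone libraries for 14 of the 19, where 14.1% of all genes were. HSPA8, the constitutive HSP70 of the cytosol (chr11:123057489-123063230), had 1707, 1620.1 and 1425 CPM with the mc-tRNA, against 1138, 1124 and 1035 CPM with the reporter alone. The groups did not overlap, the log2 change was 0.53 ± 0.08 (adjusted p = 0.000109), and the other reporters alone had 1078 to 1570.4 CPM. Its promoter window in RefSeq (GRCh38.p14, chr11:123062087-123062386, minus strand, 250 bases before to 50 after the start) is printed because it held the heat shock element searched, 3 units of GAA and TTC in turn, each 2 bases from the next, on either strand, at 230 and 55 bases before the start, in capitals.
HSPA8: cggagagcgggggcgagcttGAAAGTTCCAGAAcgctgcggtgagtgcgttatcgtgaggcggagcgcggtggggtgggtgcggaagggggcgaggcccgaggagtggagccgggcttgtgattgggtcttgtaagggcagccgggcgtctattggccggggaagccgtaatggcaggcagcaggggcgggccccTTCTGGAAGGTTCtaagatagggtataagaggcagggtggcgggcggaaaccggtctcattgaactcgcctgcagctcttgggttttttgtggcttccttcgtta
That element was found in 0.49% of 35116 promoter windows, and at 4 of the 18 genes of this list that matched by symbol (22.2%), against 69 of 13386 tested genes (0.515%). Among other risen members, windows of DNAJB6 and DNAJA1 held the element, and no window of HSPA1B, HSPA1A, HSPH1, HSPA4 or DNAJB1 did. A match is a description of the letters only. HSPA1B, 1 of the pair of heat-inducible HSP70 genes, had 397, 372 and 339.5 CPM with the mc-tRNA, against 227, 204 and 155.03 CPM with the reporter alone, a log2 change of 0.92 ± 0.18 (adjusted p = 0.00788). Its near-identical copy HSPA1A had a log2 change of 1.09 ± 0.27 (adjusted p = 0.0292) at about 1 CPM, and the split of reads between the pair is uncertain. HSPH1, the HSP110 exchange factor of HSP70, had 296, 295 and 251 CPM with the mc-tRNA, against 218, 213 and 192 CPM with the reporter alone, a log2 change of 0.43 ± 0.08 (adjusted p = 0.00362). HSPA4, of the same HSP110 family, and DNAJB1, an HSP40 that hands clients to HSP70, had log2 changes of 0.30 ± 0.06 (adjusted p = 0.00768) and 0.36 ± 0.08 (adjusted p = 0.00943). For HSPH1, HSPA4, HSPA1B and DNAJB1 the groups did not overlap. The other reporters alone reached 355 CPM for HSPH1 and 160.3 CPM for DNAJB1, above the mc-tRNA libraries. Without mc-tRNA replicate 1, or without reporter-alone replicate 3, 1 of the 19 rose, and without mc-tRNA replicate 2, 4 of the 19. Called against the other 3 EGFP(R96) reporters alone were 5 of the 19 as higher and 2 as lower (median 0.15; 13.1% of all genes were higher and 8.28% lower). Some calls were lost without mc-tRNA replicate 1 by HSPA1B, HSPA1A, HSPH1, HSPA4 and DNAJB1 (adjusted p = 0.0568 to 0.26) and without replicate 2 by HSPA1A and HSPA4 (adjusted p = 0.0586 to 0.0821). The same happened without reporter-alone replicate 2 by HSPA1A (adjusted p = 0.0802) and without replicate 3 by HSPA1B, HSPA1A, HSPH1, HSPA4 and DNAJB1 (adjusted p = 0.0572 to 0.204). Other settings ended calls, without the EGFP(R65) libraries by HSPA1A (adjusted p = 0.054). HSPA1A and DNAJB1 kept their sign but not their calls against the other 3 EGFP(R96) reporters alone (adjusted p = 0.639 to 0.675).

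A few genes of the HSP90 machine and of the TRiC chaperonin rose too. Among HSP90 and its co-chaperones, 4 of 15 tested members rose, 0 fell and 11 did not pass the test, with a median log2 change of 0.19 (1.56% of all genes rose). HSP90AA1, the inducible cytosolic HSP90 (chr14:102080738-102139699), had 2336, 2331 and 2058 CPM with the mc-tRNA, against 1768, 1723 and 1604 CPM with the reporter alone, with no overlap, a log2 change of 0.40 ± 0.08 (adjusted p = 0.00385) and 1214 to 2265 CPM in the other reporters alone. STIP1, which bridges HSP70 and HSP90, AHSA1, which stimulates the HSP90 ATPase, and PTGES3 (p23), which holds its closed state, rose by 0.33 ± 0.07, 0.29 ± 0.06 and 0.24 ± 0.06. Of the 8 subunits of TRiC, which folds actin and tubulin, 2 rose and all 8 had positive log2 changes (median 0.14). TCP1 had 571, 569.7 and 533 CPM with the mc-tRNA, against 475, 473 and 418 CPM with the reporter alone, a log2 change of 0.29 ± 0.07 (adjusted p = 0.0148), and CCT6A rose by 0.19 ± 0.05. Of 10 small heat shock and BAG genes 1 rose, BAG3, a co-chaperone of HSP70 in selective autophagy, by 0.34 ± 0.09 (adjusted p = 0.0309). Of 15 mitochondrial chaperones and proteases and of 33 proteasome subunits, 0 passed the edgeR test, with medians of 0.04 and 0.10 (5 at an unadjusted p under 0.05 and 2 in DESeq2 for the 15, and 9 at an unadjusted p under 0.05 and 0 in DESeq2 for the 33). Of the 15 genes of the HSP90 list, 10 were called higher and 0 lower against the other 3 EGFP(R96) reporters alone (median 0.18; 13.1% and 8.28% of all genes). The number of rises in the HSP90 list was 0 to 5 without 1 library. Single libraries decided some calls, lost without mc-tRNA replicate 1 by HSP90AA1, STIP1, AHSA1, PTGES3, TCP1, CCT6A and BAG3 (adjusted p = 0.0563 to 0.292) and without replicate 2 by AHSA1, PTGES3, TCP1, CCT6A and BAG3 (adjusted p = 0.08 to 0.166). Calls also failed without reporter-alone replicate 1 by CCT6A (adjusted p = 0.0832), without replicate 2 by AHSA1, PTGES3, CCT6A and BAG3 (adjusted p = 0.0569 to 0.124) and without replicate 3 by HSP90AA1, STIP1, AHSA1, PTGES3, TCP1, CCT6A and BAG3 (adjusted p = 0.0554 to 0.249). Further losses came with low counts unfiltered by CCT6A (adjusted p = 0.173) and without the EGFP(R65) libraries by CCT6A (adjusted p = 0.0685). BAG3 had a log2 change of the opposite sign against the other 3 EGFP(R96) reporters alone (-0.08).

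No gene passed in the list for the endoplasmic reticulum (ER). Of 28 ER chaperones, disulfide isomerases and unfolded protein response genes, 0 passed the test in edgeR and the median log2 change was -0.03 (9 at an unadjusted p under 0.05 and 0 in DESeq2, and 2 lower with library totals). Called against the other 3 EGFP(R96) reporters alone were 12 of the 28 as higher and 0 as lower (median 0.15; 13.1% and 8.28% of all genes). HSPA5 (BiP), the main ER chaperone, had 678, 699 and 724 CPM with the mc-tRNA, against 648, 705 and 674 CPM with the reporter alone. The groups overlapped, and the log2 change was 0.05 ± 0.07 (adjusted p = 0.777). Against the other 3 reporters alone HSPA5 was called higher, by 0.29 (adjusted p = 0.000318). ATF4 mRNA itself, whose product is raised mainly by translation, had 876, 822 and 903 CPM with the mc-tRNA, against 857, 899 and 971 CPM with the reporter alone, a log2 change of -0.07 ± 0.06 (adjusted p = 0.648) with overlapping groups, and was called higher against the other 3 reporters alone, by 0.16 (adjusted p = 0.0192).

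**Figure D3:**
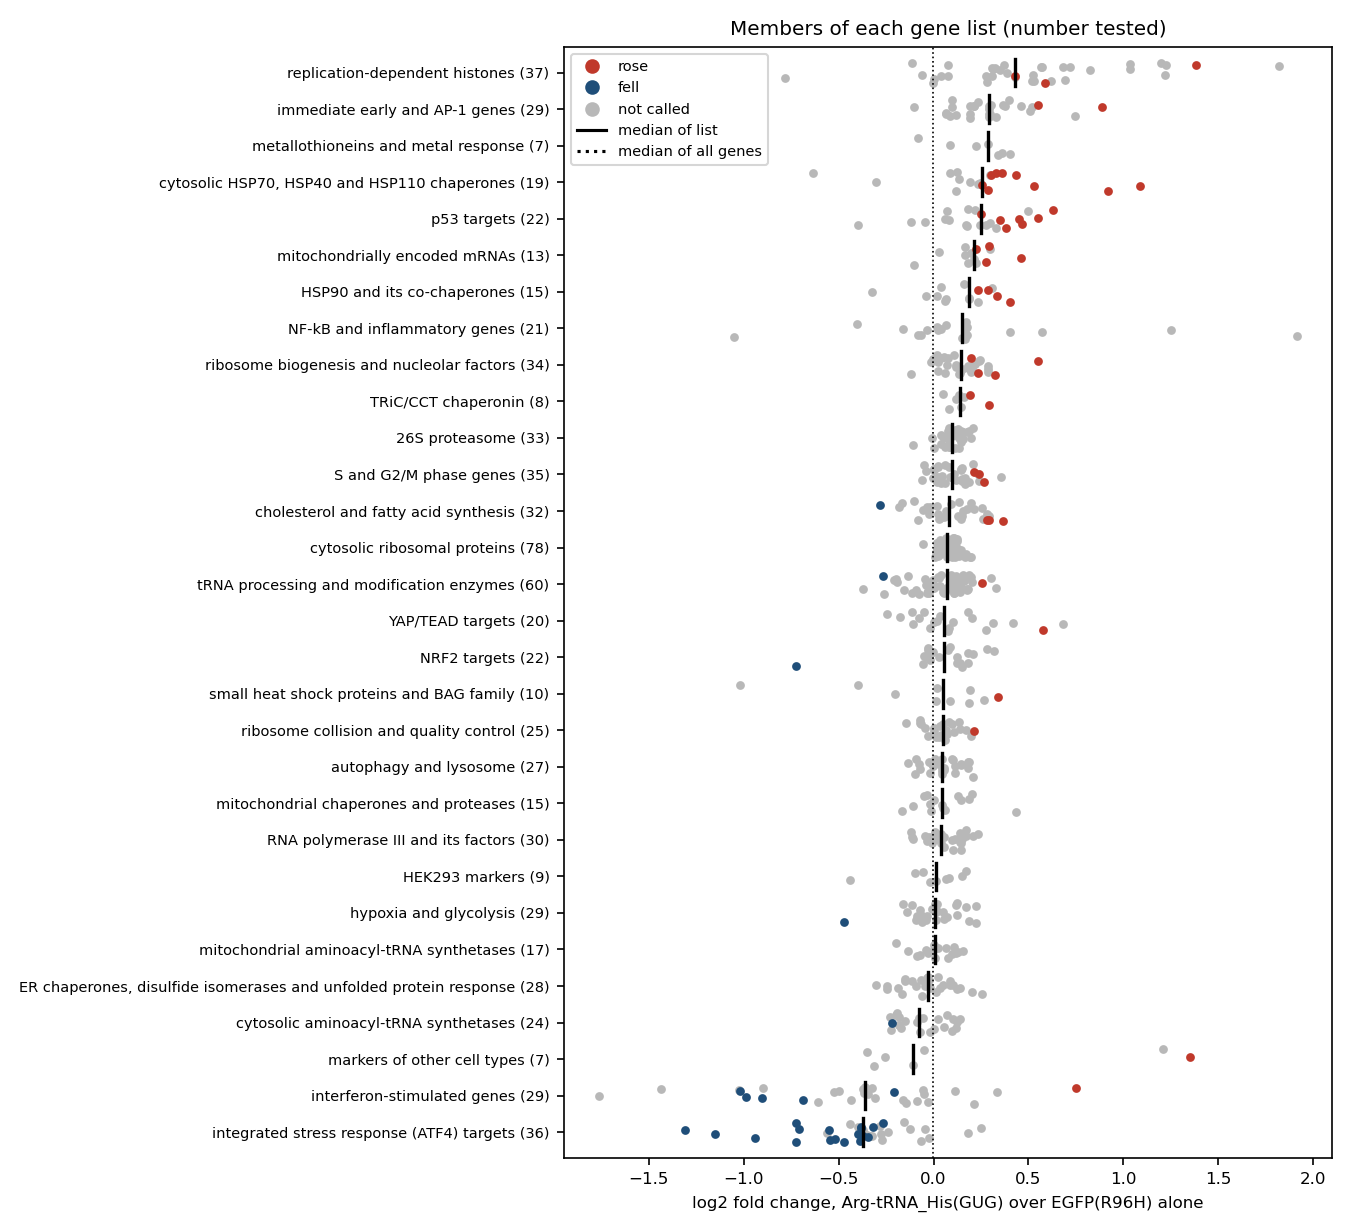
Log2 fold change of each tested member (x axis, points) with Arg-tRNA_His(GUG) over EGFP(R96H) alone, for 30 gene lists ordered by their median (black bar), with the number of tested members in brackets; red points rose, blue points fell, grey points did not pass the test and the dotted line is the median over all genes. Called members lie to the right in the chaperone, p53 and mitochondrially encoded lists and to the left among ATF4 targets and most interferon-stimulated genes.

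Many targets of ATF4 fell. In this list, 0 of 36 tested members rose, 18 fell and 18 did not pass the test, with a median log2 change of -0.37, where 0.950% of all genes fell. The 3 mc-tRNA libraries were below the 3 reporter-alone libraries for 19 of the 36, where 13.0% of all genes were. CHAC1, which degrades glutathione, had 14.1, 20.5 and 31.8 CPM with the mc-tRNA, against 40.6, 50.6 and 56.8 CPM with the reporter alone, a log2 change of -1.15 ± 0.22 (adjusted p = 0.00813). ASNS, asparagine synthetase, had 426, 498 and 593 CPM with the mc-tRNA, against 587, 736 and 849 CPM with the reporter alone, a log2 change of -0.52 ± 0.12 (adjusted p = 0.0278). The groups did not overlap for CHAC1 and did for ASNS, and in both genes the other reporters alone covered a wide range, 18.9 to 58.4 CPM for CHAC1 and 365 to 830.1 CPM for ASNS. The promoter window of CHAC1 and 1 of the 2 windows of ASNS (RefSeq, GRCh38.p14) held the amino acid response element searched, TGATGNAA on either strand, which is in capitals: CHAC1 is at chr15:40953221-40953520, plus strand, and ASNS at chr7:97872359-97872658, minus strand.
CHAC1: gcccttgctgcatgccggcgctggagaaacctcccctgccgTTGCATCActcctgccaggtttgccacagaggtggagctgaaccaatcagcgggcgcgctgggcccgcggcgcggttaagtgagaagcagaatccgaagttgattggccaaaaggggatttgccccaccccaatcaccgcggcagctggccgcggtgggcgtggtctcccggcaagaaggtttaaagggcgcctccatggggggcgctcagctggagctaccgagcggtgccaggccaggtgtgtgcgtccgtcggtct
ASNS: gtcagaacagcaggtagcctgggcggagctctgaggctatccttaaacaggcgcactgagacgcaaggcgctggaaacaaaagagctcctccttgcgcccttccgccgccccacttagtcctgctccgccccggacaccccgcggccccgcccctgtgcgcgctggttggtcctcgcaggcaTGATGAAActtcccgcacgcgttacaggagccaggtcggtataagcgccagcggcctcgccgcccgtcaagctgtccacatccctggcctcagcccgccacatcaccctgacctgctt
That motif was found in 3.62% of 35116 windows. It was at 10 of the 30 genes of the list with a window (33.3%), at 16 of the fallen genes with a window (10.3%) and at 386 of 13386 tested genes (2.88%). Among other fallen members with a window, a window of SLC7A1, of FGF21 and of SLC1A4 held the motif. No window of CBS, STC2, DDIT4, PSAT1, SLC7A5, PCK2, XPOT, MTHFD2 or SLC38A2 did. SLC7A1, the main importer of arginine and lysine (chr13:29509410-29595688), had 219.6, 239 and 263 CPM with the mc-tRNA, against 308, 317 and 317 CPM with the reporter alone, with no overlap and a log2 change of -0.38 ± 0.07 (adjusted p = 0.00243). CBS, of the transsulfuration pathway, ALDH1L2, a mitochondrial folate enzyme, and the secreted glycoprotein STC2 had log2 changes of -0.39 ± 0.07 (adjusted p = 0.00267), -0.55 ± 0.10 (adjusted p = 0.00282) and -0.38 ± 0.07 (adjusted p = 0.00453). INHBE, a secreted activin subunit outside the list, had 3.39, 4.52 and 5.92 CPM with the mc-tRNA, against 6.95, 11.01 and 15.4 CPM with the reporter alone, a log2 change of -1.26 ± 0.24 (adjusted p = 0.00768). The cystine importer SLC7A11 and the angiogenic factor VEGFA, which other stress pathways share, had log2 changes of -0.72 ± 0.18 and -0.47 ± 0.10. Among the members that did not pass, DDIT3 (CHOP) had -0.37 ± 0.15 (adjusted p = 0.191), its target TRIB3 -0.56 ± 0.21 (adjusted p = 0.166) and ATF3 -0.02 ± 0.08 (adjusted p = 0.925). Without reporter-alone replicate 1, DDIT3 and TRIB3 were both called lower (adjusted p = 0.0394 for each), and against the other 3 reporters alone ATF3 was called lower, with a log2 change of -0.28 (adjusted p = 0.00388). The count of falls was 2 to 23 without 1 library. It was 2 without mc-tRNA replicate 1, 8 without mc-tRNA replicate 2, 7 without reporter-alone replicate 2 and 3 without reporter-alone replicate 3. Called against the other 3 EGFP(R96) reporters alone were 6 of the 36 as higher and 9 as lower (median 0.01; 13.1% and 8.28% of all genes). The call was lost without mc-tRNA replicate 1 by CHAC1, ASNS, SLC7A1, STC2, INHBE, SLC7A11 and VEGFA (adjusted p = 0.0562 to 0.267) and without replicate 2 by ASNS, SLC7A11 and VEGFA (adjusted p = 0.0754 to 0.12). It was lost without reporter-alone replicate 2 by ASNS and SLC7A11 (adjusted p = 0.0909 to 0.107) and without replicate 3 by CHAC1, ASNS, STC2, INHBE, SLC7A11 and VEGFA (adjusted p = 0.0586 to 0.209). It was also lost with the 6 EGFP(R96H) libraries alone by CHAC1, ASNS, ALDH1L2, INHBE, SLC7A11 and VEGFA (adjusted p = 0.124 to 0.206) and without the EGFP(R65) libraries by SLC7A11 (adjusted p = 0.0679). SLC7A1, CBS, ALDH1L2, SLC7A11, VEGFA, ATF4 and ASNS had a log2 change of the opposite sign against the other 3 EGFP(R96) reporters alone (0.04 to 0.30). That reference is a mean of unlike reporters. ASNS averaged 713 CPM with EGFP(R96W) alone, 383 with EGFP(R96Q) alone and 437 with EGFP(R96C) alone, against 505.5 CPM with the mc-tRNA. The mc-tRNA means of SLC7A1, CBS, ALDH1L2, SLC7A11, VEGFA and ASNS were below those of EGFP(R96W) alone, and that of ATF4 was above. These differences from EGFP(R96W) alone were not tested. CHAC1 and STC2 kept their sign but not their calls against the other 3 EGFP(R96) reporters alone (adjusted p = 0.216 to 0.646).

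The synthetases of histidine and arginine and the enzyme that modifies the end of tRNA-His did not pass the test. HARS1, the cytosolic histidyl-tRNA synthetase, had 82.4, 78.7 and 74.9 CPM with the mc-tRNA, against 76.5, 73.5 and 74.9 CPM with the reporter alone, a log2 change of 0.07 ± 0.07 (adjusted p = 0.656) with overlapping groups. RARS1, the cytosolic arginyl-tRNA synthetase, had 137.4 ± 6.76 CPM with the mc-tRNA, against 127 ± 3.57 CPM with the reporter alone, a log2 change of 0.12 ± 0.06 (adjusted p = 0.348). Their mitochondrial counterparts HARS2 and RARS2 had log2 changes of 0.02 ± 0.07 (adjusted p = 0.914) and 0.13 ± 0.07 (adjusted p = 0.347). THG1L, which adds the extra guanosine that marks tRNA-His for its synthetase, had 20.8, 20.7 and 22.3 CPM with the mc-tRNA, against 23.5, 25.02 and 27.8 CPM with the reporter alone. The 3 mc-tRNA libraries of THG1L were below the others, with a log2 change of -0.26 ± 0.08 (adjusted p = 0.0806). It was called lower with DESeq2 (adjusted p = 0.0412), with library totals (0.0447), with the 6 EGFP(R96H) libraries alone (0.0245) and with the replicate block (0.0493). HARS1, HARS2, RARS1 and RARS2 were called under none of the alternatives run. Of 24 cytosolic synthetases 1 fell, LARS1, of leucine, with a log2 change of -0.22 ± 0.06 (adjusted p = 0.0323) (5 fell with library totals and 0 to 7 without 1 library), and of 17 mitochondrial ones 0 passed in edgeR (2 at an unadjusted p under 0.05 and 0 in DESeq2). Of 60 tRNA processing and modification enzymes, TRMT10C, a subunit of mitochondrial RNase P, rose by 0.25 ± 0.06 (adjusted p = 0.0181), and XPOT, the tRNA exportin and also an ATF4 target, had a log2 change of -0.26 ± 0.07 (adjusted p = 0.0291). Of 30 RNA polymerase III genes 0 passed in edgeR (4 at an unadjusted p under 0.05 and 1 in DESeq2). Of 25 ribosome collision and quality control genes 1 rose, EIF4E2, a cap-binding repressor of translation, by 0.21 ± 0.06 (adjusted p = 0.0353). Over all genes, 1.56% rose and 0.950% fell. Of 78 cytosolic ribosomal proteins 0 passed in edgeR, with a median of 0.07 (2 at an unadjusted p under 0.05 and 0 in DESeq2). Some calls were lost without mc-tRNA replicate 1 by LARS1, TRMT10C, XPOT and EIF4E2 (adjusted p = 0.167 to 0.299) and without replicate 2 by LARS1, TRMT10C, XPOT and EIF4E2 (adjusted p = 0.0821 to 0.169). The same happened without reporter-alone replicate 1 by EIF4E2 (adjusted p = 0.0687), without replicate 2 by LARS1, TRMT10C, XPOT and EIF4E2 (adjusted p = 0.0616 to 0.106) and without replicate 3 by LARS1, TRMT10C, XPOT and EIF4E2 (adjusted p = 0.183 to 0.301). Other settings ended calls, with library totals in place of TMM by EIF4E2 (adjusted p = 0.053), with low counts unfiltered by TRMT10C and EIF4E2 (adjusted p = 0.0616 to 0.188) and without the EGFP(R65) libraries by LARS1 and EIF4E2 (adjusted p = 0.0516 to 0.0638). LARS1, XPOT and THG1L had a log2 change of the opposite sign against the other 3 EGFP(R96) reporters alone (0.12 to 0.18).

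Histidine codons had about the same median share in the genes that changed and in all genes. CAC and CAU made up a median of 2.38% of the codons of 274 risen protein-coding genes, 2.46% of the fallen ones and 2.45% of 13710 tested ones, counted in the longest coding sequence of GENCODE 29 (over 90% of each set had a value). Transcripts differed in length: the median was 2346 bases for the risen genes, 4253 for the fallen and 2840 for all. No test was made of either, and the part of transcript length in the calls was not tested.

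Some targets of p53 rose. In this list, 7 of 22 tested members rose, 0 fell and 15 did not pass the test, with a median log2 change of 0.25 (1.56% of all genes rose). BTG2, an antiproliferative gene that is also an immediate early gene, had 47.95, 40.6 and 38.4 CPM with the mc-tRNA, against 29.9, 29.9 and 27.0 CPM with the reporter alone, with no overlap, a log2 change of 0.55 ± 0.09 (adjusted p = 0.00126) and 39.4 to 59.1 CPM in the other reporters alone. FDXR, ferredoxin reductase of mitochondria, GADD45A, a growth arrest gene, and DDB2, of nucleotide excision repair, rose by 0.45 ± 0.08 (adjusted p = 0.00172), 0.35 ± 0.08 (adjusted p = 0.00859) and 0.25 ± 0.06 (adjusted p = 0.0112). CDKN1A (p21), the best known p53 target, had 76.4, 67.1 and 67.2 CPM with the mc-tRNA, against 59.5, 65.6 and 61.8 CPM with the reporter alone, a log2 change of 0.17 ± 0.08 (adjusted p = 0.28), and was called lower against the other 3 reporters alone, with a log2 change of -0.42 (adjusted p = 3.68e-05). Of 29 immediate early and AP-1 genes, the mc-tRNA libraries were above the reporter-alone libraries for 21, where 14.1% of all genes were. BTG2 and FOSL1, a FOS relative, were the 2 that passed. FOSL1 had 3.30, 3.19 and 3.16 CPM with the mc-tRNA, against 1.41, 1.74 and 2.07 CPM with the reporter alone, and a log2 change of 0.89 ± 0.18 (adjusted p = 0.00505). The number of p53 targets that rose was 2 to 9 without 1 library. Of the 22 p53 targets, 2 were called higher and 7 lower against the other 3 EGFP(R96) reporters alone (median -0.12; 13.1% and 8.28% of all genes). For the immediate early genes the same comparison had 2 higher and 10 lower, with a median of -0.17. Single libraries decided some calls, lost without mc-tRNA replicate 1 by GADD45A and DDB2 (adjusted p = 0.087 to 0.128) and without replicate 2 by DDB2 (adjusted p = 0.078). Calls also failed without reporter-alone replicate 1 by GADD45A and DDB2 (adjusted p = 0.0597 to 0.0609) and without replicate 3 by DDB2 (adjusted p = 0.0552). Further losses came with low counts unfiltered by DDB2 (adjusted p = 0.0672). BTG2, FDXR, GADD45A, DDB2, FOSL1 and CDKN1A had a log2 change of the opposite sign against the other 3 EGFP(R96) reporters alone (-0.42 to -0.07).

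A few interferon-stimulated genes fell, at low levels. In this list, 1 of 29 tested members rose, 5 fell and 23 did not pass the test, with a median log2 change of -0.36. Over all genes, 1.56% rose and 0.950% fell. IFIT1, which binds foreign RNA caps, had 5.22, 6.85 and 6.36 CPM with the mc-tRNA, against 9.21, 9.68 and 10.8 CPM with the reporter alone, with no overlap and a log2 change of -0.69 ± 0.13 (adjusted p = 0.00282). In the other reporters alone IFIT1 had 4.14 to 5.46 CPM, so EGFP(R96H) alone was the highest of the 4 reporters. IFIT3, IFI44L and OAS3, an antiviral 2′-5′ oligoadenylate synthetase, had log2 changes of -1.02 ± 0.24, -0.99 ± 0.26 and -0.91 ± 0.22, at 0.742 to 3.82 CPM. ISG20, an exonuclease, moved the other way, by 0.75 ± 0.18 (adjusted p = 0.0199). Of the 29 interferon-stimulated genes, 7 were called higher and 0 lower against the other 3 EGFP(R96) reporters alone (median 0.13; 13.1% and 8.28% of all genes). Of 21 NF-kB and inflammatory genes 0 passed in edgeR (5 at an unadjusted p under 0.05 and 0 in DESeq2). The number of interferon-stimulated genes that fell was 0 to 5 without 1 library. The call was lost without mc-tRNA replicate 1 by IFIT1, IFIT3, IFI44L, OAS3 and ISG20 (adjusted p = 0.066 to 0.179), without replicate 2 by IFIT3, OAS3 and ISG20 (adjusted p = 0.06 to 0.0723) and without replicate 3 by IFIT3 and IFI44L (adjusted p = 0.0552 to 0.105). It was lost without reporter-alone replicate 1 by ISG20 (adjusted p = 0.0766), without replicate 2 by OAS3 and ISG20 (adjusted p = 0.0752 to 0.114) and without replicate 3 by IFIT3, IFI44L and OAS3 (adjusted p = 0.112 to 0.292). IFIT3, IFI44L, OAS3, IFIT1 and ISG20 had a log2 change of the opposite sign against the other 3 EGFP(R96) reporters alone (-0.22 to 0.84).

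Some mitochondrially encoded mRNAs and cholesterol enzymes rose. Of 13 mitochondrial mRNAs 4 rose and 0 fell, with a median log2 change of 0.21 (1.56% of all genes rose). The mc-tRNA libraries were above the reporter-alone libraries for 11, where 14.1% of all genes were. MT-ND1, of complex I, had 1725, 1529.8 and 1499 CPM with the mc-tRNA, against 1196, 1159.7 and 1104 CPM with the reporter alone, a log2 change of 0.46 ± 0.08 (adjusted p = 0.00282). MT-CO1, of complex IV, had 15200.0, 14837 and 13792 CPM with the mc-tRNA, against 12031, 12494 and 12944 CPM with the reporter alone, a log2 change of 0.23 ± 0.06 (adjusted p = 0.0424), and MT-ATP6 and MT-ND3 rose by 0.28 ± 0.07 and 0.29 ± 0.07. Nuclear copies of mitochondrial genes can take part of such reads. The mitochondrial share of all counts moved with the group, at 5.44% to 5.76% with the mc-tRNA, against 4.83% to 4.99% with the reporter alone, and its part in the other results was not tested. Called against the other 3 EGFP(R96) reporters alone were 11 of the 13 as higher and 0 as lower (median 0.28; 13.1% and 8.28% of all genes). Of 32 cholesterol and fatty acid synthesis genes 3 rose and 1 fell, where 1.56% of all genes rose and 0.950% fell. IDI1, which makes dimethylallyl diphosphate, had 143.8, 155.9 and 164 CPM with the mc-tRNA, against 121, 119 and 120.3 CPM with the reporter alone, a log2 change of 0.37 ± 0.08 (adjusted p = 0.0148). HMGCS1 and SQLE, of the same pathway, rose by 0.29 ± 0.07 (adjusted p = 0.0191) and 0.28 ± 0.08 (adjusted p = 0.0395), and all mc-tRNA libraries of these 3 enzymes were above the 12 libraries of the reporters alone. SREBF1, the transcription factor gene of lipid synthesis, had a log2 change of -0.28 ± 0.08 (adjusted p = 0.0466). The sterol regulatory element searched in promoter windows, TCACNCCAC on either strand, was at 1 of the 25 genes of this list with a window (4%). It was at 189 of 13386 tested genes (1.41%), and in no window of IDI1, HMGCS1 or SREBF1. Called against the other 3 EGFP(R96) reporters alone were 14 of the 32 as higher and 1 as lower (median 0.17; 13.1% and 8.28% of all genes). Some calls were lost without mc-tRNA replicate 1 by MT-ND1, MT-CO1, MT-ATP6, MT-ND3, HMGCS1, SQLE and SREBF1 (adjusted p = 0.0547 to 0.301), without replicate 2 by MT-CO1, MT-ATP6, MT-ND3, IDI1, HMGCS1, SQLE and SREBF1 (adjusted p = 0.0666 to 0.211) and without replicate 3 by IDI1, HMGCS1 and SQLE (adjusted p = 0.0563 to 0.0781). The same happened without reporter-alone replicate 1 by MT-CO1 and SREBF1 (adjusted p = 0.0935 to 0.139), without replicate 2 by MT-CO1, MT-ATP6, MT-ND3, IDI1, HMGCS1, SQLE and SREBF1 (adjusted p = 0.0557 to 0.136) and without replicate 3 by MT-CO1, MT-ATP6, MT-ND3, IDI1, HMGCS1, SQLE and SREBF1 (adjusted p = 0.091 to 0.272). Other settings ended calls, with library totals in place of TMM by SQLE and SREBF1 (adjusted p = 0.0526 to 0.0692) and without the EGFP(R65) libraries by MT-CO1, SQLE and SREBF1 (adjusted p = 0.0723 to 0.0835). SREBF1 kept its sign but not its call against the other 3 EGFP(R96) reporters alone (adjusted p = 0.441).

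Beside the other 3 arginine mc-tRNAs, each against its own EGFP(R96) reporter alone, Arg-tRNA_His(GUG) differed in fewest genes from Arg-tRNA_Gln(CUG). Its effect differed from that of Arg-tRNA_Gln(CUG) for 181 genes (0.811%), from that of Arg-tRNA_Trp(CCA) for 5083 (22.8%) and from that of Arg-tRNA_Cys(GCA) for 10764 (48.2%). These tests of the difference compared 12 libraries each in the joint fit and share the 6 EGFP(R96H) libraries. Of the 19 HSP70, HSP40 and HSP110 genes, 9 rose with Arg-tRNA_His(GUG), 2 with Arg-tRNA_Gln(CUG) (0.273% of all genes rose), 18 with Arg-tRNA_Trp(CCA) (20.7%) and 18 with Arg-tRNA_Cys(GCA) (30.2%). The median log2 changes were 0.25, 0.10, 1.08 and 3.32 in that order. The His effect differed from the Gln effect for 0 of the 19 in edgeR (6 at an unadjusted p under 0.05 and 1 in DESeq2), from the Trp effect for 14 and from the Cys effect for 17. For DNAJB1 the His effect minus the Trp effect was -1.84 ± 0.11 (adjusted p = 8.2e-15) and minus the Cys effect -6.91 ± 0.12 (adjusted p = 8.74e-32) on the log2 scale, and the values were -1.72 ± 0.12 (adjusted p = 3.47e-13) and -5.38 ± 0.12 (adjusted p = 4.16e-27) for HSPH1. Of the 28 ER genes, 0 rose with Arg-tRNA_His(GUG) or Arg-tRNA_Gln(CUG), all 28 with Arg-tRNA_Trp(CCA) and 27 with Arg-tRNA_Cys(GCA), and the His effect differed from the Trp effect in all 28. For ATF4 targets the medians were -0.37 with Arg-tRNA_His(GUG), -0.09 with Arg-tRNA_Gln(CUG), 0.24 with Arg-tRNA_Trp(CCA) and 1.84 with Arg-tRNA_Cys(GCA). The His effect on the 36 differed from the Gln effect for 2 in edgeR (14 at an unadjusted p under 0.05 and 5 in DESeq2). It differed from the Trp effect for 24 and from the Cys effect for all 36. For mitochondrially encoded mRNAs the medians were 0.21, -0.09, -0.63 and -0.49 in the same order. The His effect on mitochondrial mRNAs differed from the Gln effect for 5 of 13 and from the Trp effect for 12 of 13. Without mc-tRNA replicate 1, the difference from Arg-tRNA_Gln(CUG) held for 18 genes. It held for 96 without reporter-alone replicate 1, 96 without replicate 2, 52 without replicate 3 and 67 without mc-tRNA replicate 2, and for 328 without mc-tRNA replicate 3. With library totals in place of TMM factors, 81.1% of the genes that differed from the Cys effect were on the higher side, where TMM gave 49.2%, and 66.8% of those that differed from the Trp effect, where TMM gave 46.8%.

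**Figure D4:**
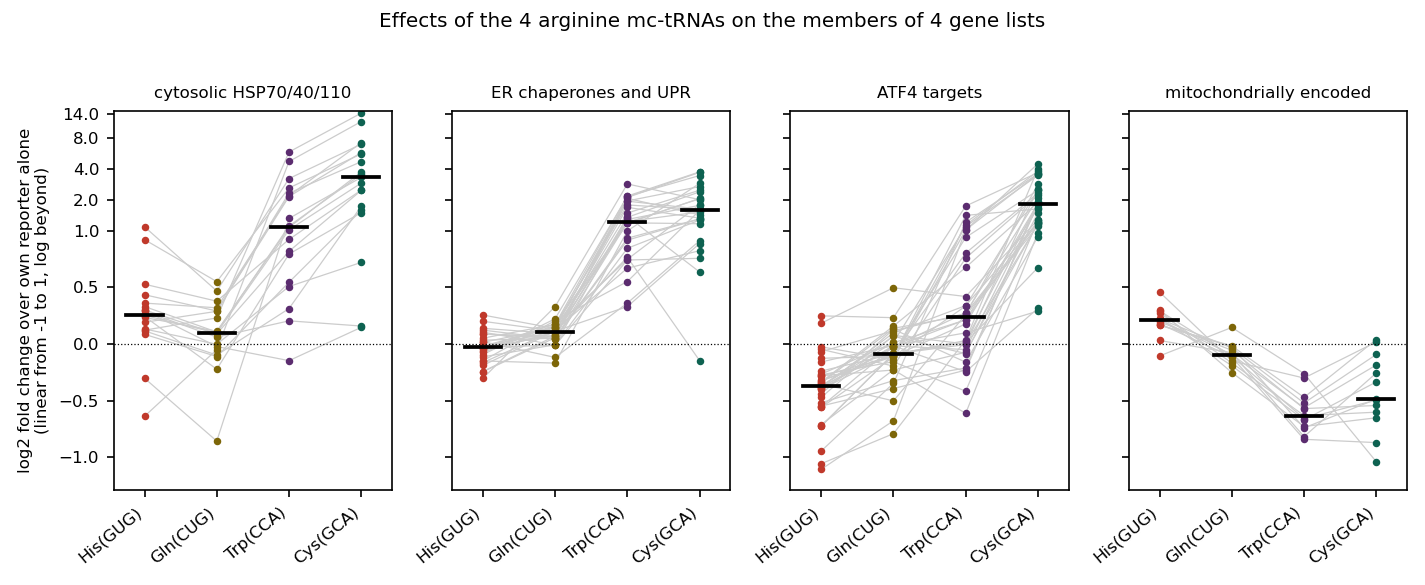
Log2 fold change of each list member over its own reporter alone (y axis, linear from -1 to 1 and logarithmic beyond) with Arg-tRNA_His(GUG), Arg-tRNA_Gln(CUG), Arg-tRNA_Trp(CCA) and Arg-tRNA_Cys(GCA) (x axis); points are genes joined by grey lines and black bars are medians. For the cytosolic chaperones the medians are 0.25, 0.10, 1.08 and 3.32, and for the mitochondrially encoded mRNAs 0.21, -0.09, -0.63 and -0.49.

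The same EGFP(R96H) libraries enter a call with Arg-tRNA_His(GUG) and its difference from the effect of Arg-tRNA_Gln(CUG). A called gene is therefore more likely to differ too, and the count here is a description only. Of the 560 genes called with Arg-tRNA_His(GUG), 100 had an effect that differed from that of Arg-tRNA_Gln(CUG) (0.811% of all tested genes). Among those with the smallest p-values, above it were the linker histone H1-2, by 1.08 ± 0.16 (adjusted p = 0.000433), the signalling adaptor SH2D3C, by 1.19 ± 0.16 (adjusted p = 7.5e-05), RAB3A, by 0.82 ± 0.14 (adjusted p = 0.00218), the stress gene GADD45B, by 0.77 ± 0.12 (adjusted p = 0.00148), and the pseudogene FAM86MP, by 0.87 ± 0.14 (adjusted p = 0.00251). H1-2 had 12.2, 9.62 and 11.02 CPM with the mc-tRNA, against 6.72, 7.41 and 7.72 CPM with the reporter alone, and its log2 change was 0.59 ± 0.11 with Arg-tRNA_His(GUG) and -0.49 with Arg-tRNA_Gln(CUG). Below it, besides FMC1, were IFIT3, by -1.80 ± 0.36 (adjusted p = 0.0134), SLC7A1, by -0.48 ± 0.10 (adjusted p = 0.015), H6PD, an ER dehydrogenase of the pentose phosphate route, by -0.73 ± 0.13 (adjusted p = 0.00445), and SGPL1, a sphingosine phosphate lyase, by -0.39 ± 0.08 (adjusted p = 0.00911). H6PD had 33.4, 33.1 and 42.8 CPM with the mc-tRNA, against 49.0, 45.8 and 50.3 CPM with the reporter alone. Reads of FAM86MP may be shared with other copies of its family. Single libraries decided some calls, lost without mc-tRNA replicate 1 by SH2D3C, GADD45B, H6PD, SGPL1 and H1-2 (adjusted p = 0.0765 to 0.335), without replicate 2 by GADD45B, H6PD and SGPL1 (adjusted p = 0.067 to 0.122) and without replicate 3 by GADD45B (adjusted p = 0.0578). Calls also failed without reporter-alone replicate 1 by GADD45B (adjusted p = 0.202), without replicate 2 by SH2D3C and SGPL1 (adjusted p = 0.059 to 0.0932) and without replicate 3 by SH2D3C, GADD45B, H6PD and SGPL1 (adjusted p = 0.0851 to 0.231). Further losses came with library totals in place of TMM by GADD45B (adjusted p = 0.066), with low counts unfiltered by GADD45B (adjusted p = 0.0863) and without the EGFP(R65) libraries by SH2D3C and GADD45B (adjusted p = 0.0505 to 0.076). H1-2, SH2D3C, GADD45B, FAM86MP, H6PD and SGPL1 had a log2 change of the opposite sign against the other 3 EGFP(R96) reporters alone (-0.43 to 0.48).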

How the data were processed

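Gene-level polyA mRNA counts of 30 HEK293 libraries were read, and 6 of them carry the comparison. The values are whole-number counts per gene with no normalization, 1 table per library, as deposited by the authors. STAR, SAMtools and featureCounts with build hg38 are named per the submitters' processing notes. The sources used here do not give tool versions, the annotation or the strand setting. Of 58370 features in each table, 92 spike-in rows were dropped. Of 58278 gene identifiers, 55109 matched GENCODE 29 by version and gave positions on GRCh38, and 41844 symbols came from a symbol table.

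The test was edgeR's (4.0.16, run under R 4.3.3; quasi-likelihood with TMM, filterByExpr, 10 group means, 30 libraries, 20 residual degrees of freedom, biological coefficient of variation 8.24%), and the fit was tested on simulated data. The SE is the log2 change divided by the root of F. DESeq2 1.42.0 and other scalings, filters, libraries and references were alternatives. Replicate pairs differed by more than counting error (chi-square per degree of freedom 4.77 to 11.8). The p-values measure the spread between the 3 replicates of a group, pooled over the 10 groups of the 30 libraries. They do not rest on the spread of the compared libraries alone. The members and the 30 lists were chosen with earlier results of these data known. Named genes are the 12 largest and 12 most significant changes per direction among called genes of at least 1 CPM whose groups did not overlap, up to 4 called members per list and direction, 21 stress and tRNA genes, and per difference the 5 most significant per direction. Promoter windows are from RefSeq, GRCh38.p14.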

Additional observations from a re-analysis of the deposited data

Results flagged for a closer look

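The effect of Arg-tRNA_His(GUG) over EGFP(R96H) alone was compared with the effect of each other arginine mc-tRNA over its own reporter alone, and the results here differed between the mc-tRNAs by the interaction term of the edgeR fit (Benjamini-Hochberg adjusted p under 0.05 over 22321 genes). The His effect differed from the Gln effect for 181 genes, from the Cys effect for 10764 and from the Trp effect for 5083. Genes are those with the smallest p-values among genes also called with Arg-tRNA_His(GUG), and each value is the His effect minus the other effect on the log2 scale.

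Against Arg-tRNA_Gln(CUG), the difference was 0.82 for RAB3A, 1.08 for H1-2, 1.19 for SH2D3C, 0.77 for GADD45B and 0.87 for FAM86MP on the higher side. It was -1.54 for FMC1, -1.80 for IFIT3, -0.48 for SLC7A1, -0.73 for H6PD and -0.39 for SGPL1 on the lower side.

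Against Arg-tRNA_Cys(GCA), the difference was 1.16 for CUL9, 1.78 for PIF1, 1.99 for CCND1, 1.06 for HOXD13 and 1.94 for POLR1G. These are the p53-binding cullin CUL9, the helicase PIF1, cyclin D1 (CCND1), the homeobox gene HOXD13 and the RNA polymerase I subunit POLR1G, at log2 changes of -0.36 ± 0.07, 0.38 ± 0.08, 0.36 ± 0.09, 0.25 ± 0.06 and 0.50 ± 0.11 with Arg-tRNA_His(GUG). On the lower side, among chaperones and the calcyclin-binding protein CACYBP, it was -5.38 for HSPH1, -4.10 for HSP90AA1, -5.37 for BAG3, -6.91 for DNAJB1 and -3.23 for CACYBP.

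Against Arg-tRNA_Trp(CCA), the difference was 2.71 for FMC1, 4.90 for IFNA22P, 0.91 for MT-ATP6, 0.90 for MT-CO1 and 3.59 for EEF1A1-AS1. It was -1.23 for MXD1, -1.72 for HSPH1, -2.54 for BAG3, -1.84 for DNAJB1 and -1.36 for SNHG12 on the lower side. SNHG12, a host gene of small nucleolar RNAs, had 35.1, 34.2 and 30.3 CPM with the mc-tRNA, against 25.8, 25.4 and 26.2 CPM with the reporter alone, and the antisense gene EEF1A1-AS1 had 2.57, 3.38 and 2.72 CPM with the mc-tRNA, against 1.93, 1.51 and 1.41 CPM with the reporter alone. The call was lost without mc-tRNA replicate 1 by PIF1, CCND1, HOXD13, POLR1G, CACYBP, SNHG12 and EEF1A1-AS1 (adjusted p = 0.0902 to 0.191) and without replicate 2 by CCND1, HOXD13, CACYBP and EEF1A1-AS1 (adjusted p = 0.0505 to 0.161). It was lost without reporter-alone replicate 2 by CCND1, POLR1G, CACYBP and EEF1A1-AS1 (adjusted p = 0.0589 to 0.129) and without replicate 3 by PIF1, CCND1, HOXD13, POLR1G, CACYBP and EEF1A1-AS1 (adjusted p = 0.0679 to 0.204). It was also lost with library totals in place of TMM by CCND1 (adjusted p = 0.0521), with low counts unfiltered by HOXD13 (adjusted p = 0.0665) and without the EGFP(R65) libraries by CCND1 (adjusted p = 0.0517). HOXD13, EEF1A1-AS1 and SNHG12 had a log2 change of the opposite sign against the other 3 EGFP(R96) reporters alone (-0.65 to -0.04). PIF1 and POLR1G kept their sign but not their calls against the other 3 EGFP(R96) reporters alone (adjusted p = 0.356 to 0.451). With 3 libraries a group, single libraries far from the others could not be looked for by the gap rule, which needs 4.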

How the results depend on the processing

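Counts of calls moved most. The 560 calls became 1911 with the 6 EGFP(R96H) libraries alone, 927 with DESeq2, 1068 with the replicate block, 369 without the EGFP(R65) libraries and 4770 against the other 3 EGFP(R96) reporters alone, where 209 of the 560 were called. In the same order the risen genes were 1129, 541, 622, 212 and 2921, of 348, and the fallen 782 with the 6 libraries, 386 with DESeq2, 446 with the block and 1849 against the other reporters, of 212. With no filter on low counts 327 fell. Leaving out 1 library gave 53 to 636 calls, 43 to 388 risen and 10 to 248 fallen. The 181 differences from Arg-tRNA_Gln(CUG) became 366 with no filter, 491 with DESeq2, 78 without the EGFP(R65) libraries, 505 with the replicate block, and 18 to 328 without 1 library. The 10764 and 5083 differences from the Cys and Trp effects stayed within 1.5 times in all alternatives run, at 10079 to 13060 and 4300 to 5650. A library left out leaves 2 in its group, which are assumed to vary like the rest. The cause of these shifts was not tested. Over all genes, same-numbered libraries deviated together only weakly (r = 0.0761, 0.000933 and 0.0719). For unlike numbers r was -0.0903 to 0.0231. The numbers were not taken as pairs in the main fit. In some genes, such as ASNS and CHAC1, levels rose from replicate 1 to 3 in both groups, and in others, such as LRP1, they did not. With the block the edgeR adjusted p of ASNS was 0.000289, where the main fit gave 0.0278. Whether the numbers mark a batch is not in the labels and was not tested. With the block, AURKB alone of 99 called named genes lost its call.

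Against the other 3 EGFP(R96) reporters alone, these log2 changes took the opposite sign: COLCA1 -0.0030, FBXO40 -0.10, CASS4 -0.11, PRICKLE2-AS1 -0.28, FAM169A-AS1 -0.67, H2BC17 -0.060, ZMAT1 0.52, IFIT3 0.76, IFI44L 0.84, HEXIM2-AS1 0.24, OAS3 0.034, SGMS1-AS1 0.17, BDNF-AS 0.047, LSMEM1 -0.052, MXD1 -0.020, OVGP1 -0.038, CCDC13 -0.22, HOXC13 -0.13, RAB3A -0.16, SLC7A1 0.11, CBS 0.10, ALDH1L2 0.22, ZBED3 0.15, IFIT1 0.36, BAG3 -0.081, LARS1 0.12, XPOT 0.18, PNO1 -0.046, BTG2 -0.24, FDXR -0.20, GADD45A -0.15, DDB2 -0.19, ISG20 -0.22, FOSL1 -0.071, SLC7A11 0.30, AURKB -0.0018, VEGFA 0.064, H1-2 -0.37, H2BC21 -0.33, CCN1 -0.084, THG1L 0.17, ATF4 0.16, ASNS 0.038, CDKN1A -0.42, SH2D3C -0.43, GADD45B -0.35, FAM86MP -0.32, H6PD 0.48, SGPL1 0.013, HOXD13 -0.041, EEF1A1-AS1 -0.65 and SNHG12 -0.25. ATF3, not called, had 0.0269 without EGFP(R96H) replicate 2, 0.00809 without EGFP(R96H) replicate 3 and 0.0294 without EGFP(R96H)+Arg-tRNA_His(GUG) replicate 1. Of the 99 called named genes, 8 lost the call with library totals, 11 with no filter, 7 with the 6 libraries alone, 18 without the EGFP(R65) libraries, and 9 to 70 without 1 library. RLE factors and DESeq2 kept all 99.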

Other observations

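Some genes of growth rose in small steps, where 1.56% of all genes rose. Of 34 ribosome biogenesis genes 4 rose and 0 fell, with a median log2 change of 0.14: the pre-rRNA factors PNO1, NOP16 and NOP58 and the nucleolar GTPase GNL3 rose by 0.32 ± 0.08, 0.55 ± 0.13, 0.24 ± 0.07 and 0.20 ± 0.06. Of 35 S and G2/M genes 3 rose, the mitotic kinases BUB1 and AURKB and the ubiquitin enzyme UBE2C, by 0.24 ± 0.06, 0.27 ± 0.07 and 0.21 ± 0.06. NOP16 had 42.6, 37.1 and 28.1 CPM with the mc-tRNA, against 27.0, 25.02 and 21.6 CPM with the reporter alone, with no overlap of the groups. Some calls were lost without mc-tRNA replicate 1 by PNO1, NOP16, NOP58, GNL3, BUB1, AURKB and UBE2C (adjusted p = 0.2 to 0.416), without replicate 2 by PNO1, NOP16, NOP58, GNL3, BUB1, AURKB and UBE2C (adjusted p = 0.0708 to 0.254) and without replicate 3 by UBE2C (adjusted p = 0.056). The same happened without reporter-alone replicate 1 by NOP58, GNL3, BUB1, AURKB and UBE2C (adjusted p = 0.0656 to 0.0802), without replicate 2 by PNO1, NOP16, NOP58, GNL3, BUB1, AURKB and UBE2C (adjusted p = 0.0673 to 0.166) and without replicate 3 by PNO1, NOP16, NOP58, GNL3, BUB1, AURKB and UBE2C (adjusted p = 0.111 to 0.249). Other settings ended calls, with library totals in place of TMM by NOP58, GNL3 and UBE2C (adjusted p = 0.0578 to 0.0719), with low counts unfiltered by NOP58, GNL3, BUB1 and UBE2C (adjusted p = 0.0539 to 0.183), with the 6 EGFP(R96H) libraries alone by NOP16 (adjusted p = 0.13) and without the EGFP(R65) libraries by NOP58, GNL3, BUB1, AURKB and UBE2C (adjusted p = 0.0679 to 0.0838). PNO1 and AURKB had a log2 change of the opposite sign against the other 3 EGFP(R96) reporters alone (-0.05 to -0.00). NOP16, NOP58, BUB1 and UBE2C kept their sign but not their calls against the other 3 EGFP(R96) reporters alone (adjusted p = 0.437 to 0.995).

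Replication-dependent histones had the highest median of the 30 lists, 0.43 over 37 tested members, and 3 rose: H1-2, H2BC17 and H2BC21, by 0.59 ± 0.11, 1.38 ± 0.28 and 0.43 ± 0.12. Over all genes, 1.56% rose and 0.950% fell. Of the 37 histones, 0 were called higher and 13 lower against the other 3 EGFP(R96) reporters alone (median -0.56; 13.1% and 8.28% of all genes). Most histone mRNAs lack a polyA tail, so these counts cover polyA RNA only, and near-identical histone genes can share reads. Of 20 YAP/TEAD targets 1 rose, the matricellular CCN1, with 25.1, 21.9 and 20.6 CPM with the mc-tRNA, against 15.3, 16.4 and 13.7 CPM with the reporter alone, a log2 change of 0.58 ± 0.11 (adjusted p = 0.00596). Of the markers of other cell types 7 were tested and 1 rose, the liver gene ALB, with 66 counts over the mc-tRNA libraries and 29 over the reporter-alone libraries. Of 22 NRF2 targets 0 rose and 1 fell (SLC7A11), of 29 hypoxia and glycolysis genes 1 fell (VEGFA), and of 27 autophagy, 7 metallothionein and 9 tested HEK293 marker genes 0 passed in edgeR (4, 3 and 1 at an unadjusted p under 0.05 and 0 in DESeq2). Single libraries decided some calls, lost without mc-tRNA replicate 1 by H2BC17, H2BC21, CCN1 and ALB (adjusted p = 0.0769 to 0.299), without replicate 2 by H2BC21 (adjusted p = 0.149) and without replicate 3 by H2BC21 and ALB (adjusted p = 0.065 to 0.0887). Calls also failed without reporter-alone replicate 1 by H2BC21 and ALB (adjusted p = 0.104 to 0.136), without replicate 2 by H2BC21 and ALB (adjusted p = 0.0967 to 0.21) and without replicate 3 by H2BC17, H2BC21, CCN1 and ALB (adjusted p = 0.0572 to 0.149). Further losses came with low counts unfiltered by H2BC21 (adjusted p = 0.13) and without the EGFP(R65) libraries by H2BC21 and ALB (adjusted p = 0.0575 to 0.104). H2BC17, H2BC21 and CCN1 had a log2 change of the opposite sign against the other 3 EGFP(R96) reporters alone (-0.33 to -0.06).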
